A study of Danio rerio with 7 samples.

Results

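Vitellogenins are the large lipid-carrying proteins from which egg yolk is made. In egg-laying vertebrates the liver of the mature female produces them when oestradiol, released by the ovary, binds oestrogen receptors in liver cells, of which Esr1 is the main receptor for vitellogenin induction in fish. The proteins travel in the blood to the ovary, where growing oocytes take them up through receptors of the low-density lipoprotein receptor family and cut them into yolk proteins. Males carry the same genes and normally make little vitellogenin, so its level is widely used as a sign of oestrogen exposure.

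The genes described here are the vitellogenins vtg2, vtg4 and vtg5 and the receptor gene esr1, which are 4 of 11484 genes with a named probe on the array. They were found through the transcript accession attached to each non-control probe, and each had exactly 1 probe (A_15_P116848 for vtg2, A_15_P103847 for vtg4, A_15_P117632 for vtg5 and A_15_P149356 for esr1). Vtg4 and vtg5 belong to the type I vitellogenins of zebrafish, and vtg2 is of another type with a somewhat different structure. No probe was named for vtg1, vtg3, vtg6, vtg7 or vtg8. Transcripts of the type I genes are very similar, and how far the vtg4 and vtg5 probes also bind those of their relatives was not tested.

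RNA came from homogenates of whole adult zebrafish (Danio rerio), 4 labelled female (numbers 4, 7, 8 and 9) and 3 labelled male (numbers 5, 8 and 9), each on 1 array of 2 colours. All 7 were full siblings of a hybrid strain given as AB crossed with an unknown strain, with no treatment in the labels, and the series used them to relate expression to copy number. Each fish was labelled with Cy5 and set against a common reference of hybrid whole-animal RNA in Cy3. The main quantity is the log2 ratio of the scanner software's processed Cy5 signal over its processed Cy3 signal, so that 0 means the level of the reference. Exact ages were not given beyond adult. The dye of the fish was Cy5 on every array, so a dye bias equal on all arrays drops out of differences between fish. A dye bias that changes with the array or with signal strength does not drop out. The median log2 ratio of tested probes was 0.61 on the array of male 8 and between 0.02 and 0.09 on the others. In whole-animal RNA, fewer liver cells and less vitellogenin RNA per liver cell cannot be told apart.

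The arrays differed in brightness and fell into 3 scan sessions. Session 1 held females 7 and 9 and male 9, session 2 held male 8, and session 3 held females 4 and 8 and male 5. By the barcodes in the headers, male 8 was also the only array on slide 2, and the others were on slide 1. Effects of session and slide on male 8 cannot be told apart. Probes well above background in Cy5 made up 29.7% to 33.7% of the array in session 3, 47.2% in session 2 and 45.7% to 65.2% in session 1. The library labelled male 5 stood with the females in markers of egg and testis. Over 11 oocyte and egg coat genes, the median log2 ratio was between -0.56 and 0.09 in the females. In the library labelled male 5 that median was -0.11 with all 11 well above background, while it was -6.14 in male 8 and -5.30 in male 9. Over 7 testis genes the median was between -0.13 and 1.14 in the females, against 0.46 in the library labelled male 5, 3.78 in male 8 and 4.61 in male 9. Of those 7 genes, 2 were well above background in the library labelled male 5, 2 in female 4 and 1 in female 8, all of session 3. In the other fish 6 or 7 were, so the testis medians of session 3 rest mostly on spots not well above background. Comparisons of the sexes below are therefore given with and without that library.

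Vtg5 was above the reference in every fish labelled female and far below it in males 8 and 9. Its log2 ratio was 2.53, 1.92, 3.07 and 2.52 in females 4, 7, 8 and 9, against 1.19 in the library labelled male 5, -2.75 in male 8 and -2.64 in male 9. The females averaged 2.51 ± 0.47 (SD, n = 4) and the 3 males -1.40 ± 2.24 (SD, n = 3). All 4 females thus lay above all 3 males, with the library labelled male 5 much nearer to the females than to its own group. Vtg5 was the only one of the 4 genes whose processed-signal ratios did not overlap between the sexes. Over all probes, every female was higher in 1.98%.

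Vtg4 followed the same order of groups, but its ranges overlapped through a single fish. Its log2 ratio was 2.52, 1.60, 3.54 and 1.79 in females 4, 7, 8 and 9, against 1.75 in the library labelled male 5, -3.17 in male 8 and -2.54 in male 9. The library labelled male 5 lay between female 7 and female 9, by margins smaller than the spread among females (2.36 ± 0.88, SD, n = 4). Males 8 and 9 were both below the reference.

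Vtg2 had the widest range. Its log2 ratio was 1.56, 0.51, 2.92 and 1.31 in females 4, 7, 8 and 9, against 2.30 in the library labelled male 5, -4.86 in male 8 and -3.76 in male 9. In this ratio the library labelled male 5 was above 3 of the 4 females, while males 8 and 9 were again the lowest. In Cy5 signal alone that library was above only female 4 of the females, as given below. In male 8 the Cy5 spot of vtg2 was not well above background, so its value there is only an upper limit on the level. It was well above background on the other 6 arrays, and vtg4 and vtg5 on all 7. No spot of the 4 genes was saturated in Cy5.

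Esr1 showed no such pattern in the processed-signal ratios. Its log2 ratio was 1.68, 1.27, 0.21 and 1.34 in females 4, 7, 8 and 9, against 0.34 in the library labelled male 5, 1.11 in male 8 and 1.93 in male 9. The sexes overlapped, with means of 1.12 ± 0.63 in females (SD, n = 4) and 1.13 ± 0.79 in males (SD, n = 3). With another background correction and normalization (normexp and loess) they did not overlap. The females then ran from 0.21 to 0.38, against 0.05 in the library labelled male 5, 0.18 in male 8 and 0.14 in male 9. That difference was 0.17 (adjusted p = 0.592 by limma), and the share of all probes with such an order is not given here. The probe was dim throughout. Its Cy5 signal was well above background only in females 7 and 9 and in male 9, the 3 fish of session 1, and its Cy3 signal only on the array of female 9. On the other arrays the esr1 ratio compares 2 signals at the level of background.

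**Figure D1:**
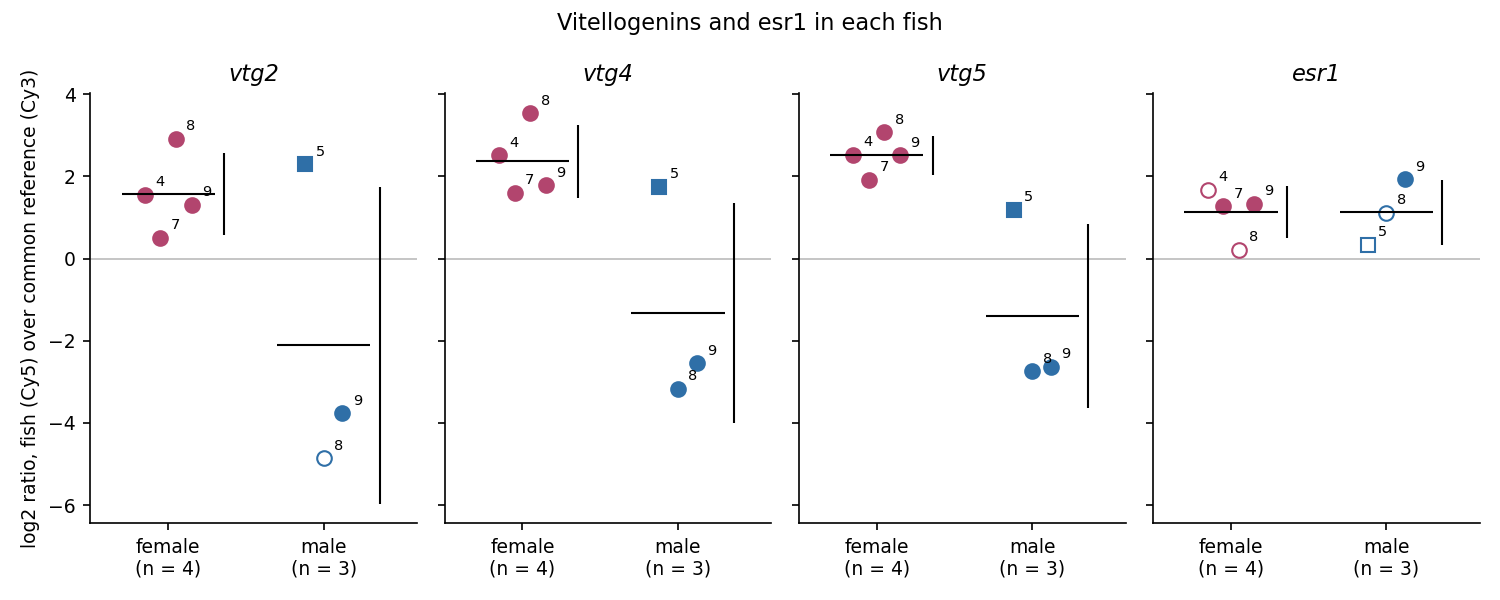
The vertical axis gives the log2 ratio of each fish over the common reference for the 4 genes, with females left of males in each panel, numbers naming the fish, horizontal lines the group means and vertical bars 1 SD. Open symbols were not well above background in Cy5, the square is the library labelled male 5, and the vitellogenins of males 8 and 9 lie between -4.86 and -2.54 while every female lies above 0.

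Set across all 7 fish by their labels, none of the 4 genes passed a test over the whole array. The difference of females minus males on the log2 scale was 3.90 ± 0.95 for vtg5, 3.68 ± 1.13 for vtg4 and 3.68 ± 1.51 for vtg2 (SE), each with an adjusted p of 0.413 by limma. Their unadjusted p values were 0.0024 for vtg5, 0.0092 for vtg4 and 0.036 for vtg2. Of 22705 probes tested, 0% were called, with 2613 at an unadjusted p under 0.05. Ranked by the difference toward females, vtg5 was at place 78, vtg4 at 125 and vtg2 at 127 of those probes. An exact two-sided permutation test over the 7 fish gave p = 0.0571 for vtg5, the smallest that 4 against 3 fish allow, 0.114 for vtg4 and 0.229 for vtg2. The esr1 difference was -0.0020 ± 0.64 (SE; adjusted p = 0.999 by limma). P values here measure the spread between single fish, each a separate animal with no repeat array.

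With scan session as a block, the differences of females minus males were 3.23 for vtg5, 2.76 for vtg4 and 2.30 for vtg2, at an adjusted p of 0.702 by limma. Within session 3, females 4 and 8 minus the library labelled male 5 gave 1.61 for vtg5, 1.28 for vtg4 and -0.06 for vtg2 (adjusted p = 1.00 by limma). Within session 1, females 7 and 9 minus male 9 gave 4.85 for vtg5, 4.23 for vtg4 and 4.67 for vtg2 (adjusted p = 0.0048, 0.0048 and 0.0051 by limma). The contrasts differ in session, in females and in the male, and these cannot be told apart. In session 1, 55.8% of all probes were called, and male 9, the lone male there, was assumed to be as variable as the females.

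Without the library labelled male 5, all 3 vitellogenins were higher in females and esr1 did not pass. The 4 females minus males 8 and 9 differed by 5.88 ± 0.71 for vtg2, 5.22 ± 0.63 for vtg4 and 5.20 ± 0.45 for vtg5 on the log2 scale (SE; adjusted p = 0.0019, 0.0018 and 0.0012 by limma). As ratios these were 37.2-fold for vtg4 and 36.7-fold for vtg5. For vtg2 the value of male 8 is only a limit, so no fold over both males is given. Against male 9 alone, where it was measured, vtg2 was higher in the females by 5.33 on the log2 scale, or 40.3-fold. With a lone male, the spread among males is not part of that comparison. In this fit 41.6% of 22705 probes were called, 22.4% of all higher in females, and the median of all probes was -0.33. Vtg4 was at place 208 and vtg5 at place 212 in the order toward females. Every female was above both males for all 3 genes, as for 29.4% of all probes. The exact permutation p was 0.133 for each vitellogenin, the smallest that 4 against 2 fish allow. The esr1 difference was -0.40 ± 0.54 (SE; adjusted p = 0.570 by limma). That library was left out for its egg markers with its vitellogenin values already known, so these results are not independent of that choice.

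The 3 vitellogenin calls remained with the scan session as a block and with another background correction and normalization. With the block, which rests on females 7 and 9 against male 9, the differences were 4.67 for vtg2, 4.23 for vtg4 and 4.85 for vtg5 (adjusted p = 0.025, 0.020 and 0.017 by limma), where 24.8% of probes were called. With normexp and loess they were 3.34, 4.53 and 4.26 (adjusted p = 0.0073, 0.0034 and 0.0011 by limma), where 25.4% were called. The vtg2 difference moved most, and the vtg2 ratio of male 8 was -1.52 with normexp and loess against -4.86 with processed signals. The esr1 difference was 0.13 with normexp and loess, opposite in sign to its value of -0.40 (adjusted p = 0.530 by limma).

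**Figure D2:**
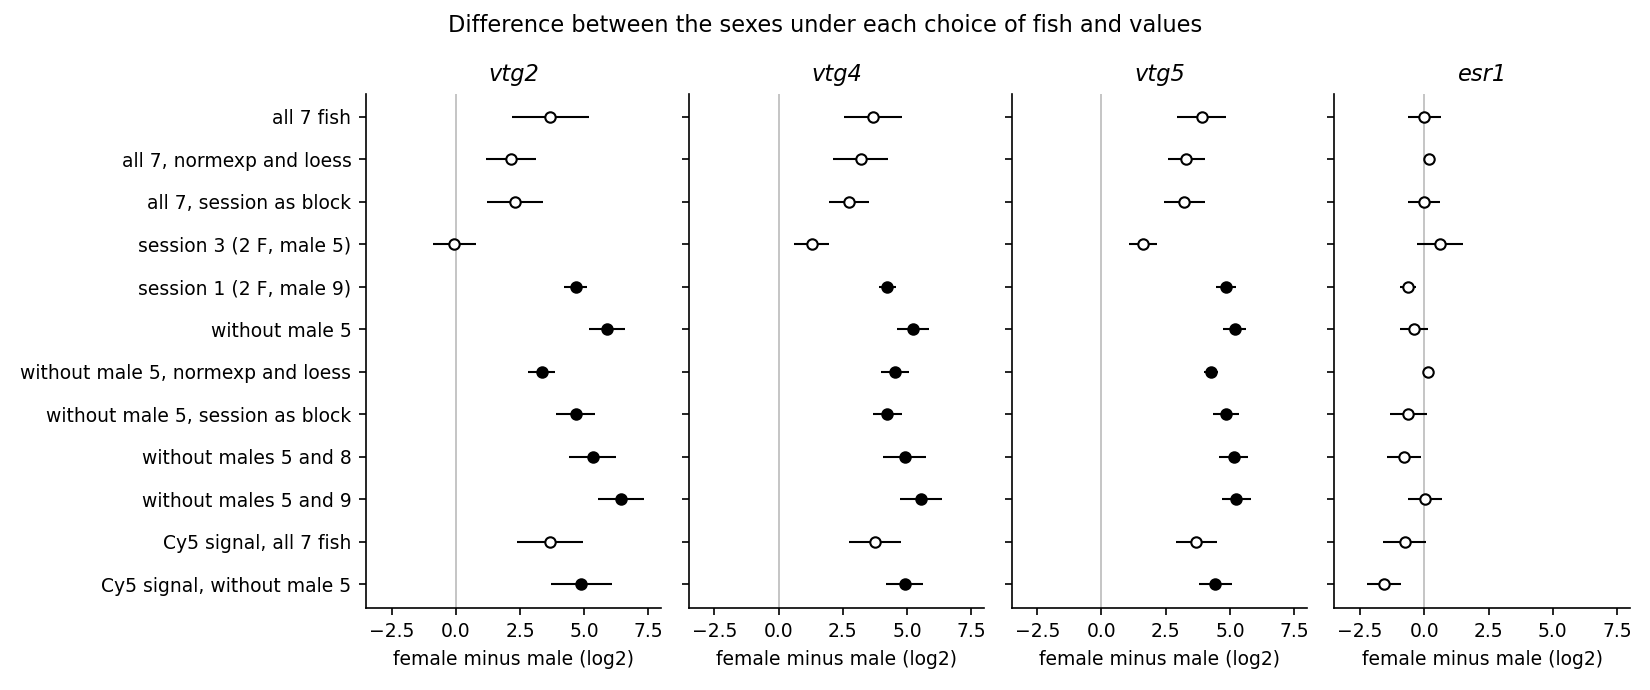
The horizontal axis gives the difference of females minus males on the log2 scale for each gene, with bars of 1 SE, under each choice of fish and of values named at the left. Filled points have an adjusted p under 0.05 by limma. The 3 vitellogenins are filled in each comparison shown that leaves out the library labelled male 5, esr1 in none, and the session 3 value of vtg2 is -0.06.

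The Cy5 signal alone, which leaves out the reference, placed the fish differently within the females. The vtg5 signal in Cy5 was 15186, 62897, 21012 and 73769 in females 4, 7, 8 and 9, against 5596 in the library labelled male 5, 809 in male 8 and 2331 in male 9. Vtg4 gave 31715, 93259, 51523 and 91398 in females 4, 7, 8 and 9, against 17035 in the library labelled male 5, 646.5 in male 8 and 4654 in male 9. Both genes were brightest in females 7 and 9, which were scanned in session 1 together with the much dimmer male 9, and dimmest in male 8.

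Vtg2 had Cy5 signals of 2028, 19850.2, 6737.5 and 26877 in females 4, 7, 8 and 9, against 2904 in the library labelled male 5, 70.6 in male 8 and 1016 in male 9. Female 4 was thus below the library labelled male 5, and the other females were above all males. Esr1 gave 48.5, 61.7, 19.7 and 126 in females 4, 7, 8 and 9, against 20.9 in the library labelled male 5, 78.6 in male 8 and 224 in male 9. Male 9 was the brightest fish for esr1 and female 8 the dimmest.

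Scaled to each array's 75th percentile, the Cy5 signal of females minus males differed by 3.69 for vtg5, 3.74 for vtg4 and 3.66 for vtg2 on the log2 scale over 7 fish (adjusted p = 0.407 by limma, 0% called). All 4 females were above all 3 males for vtg4 and vtg5 on this scale, as for 1.83% of probes. Without the library labelled male 5 the differences were 4.44 ± 0.66 for vtg5, 4.91 ± 0.71 for vtg4 and 4.88 ± 1.19 for vtg2 (SE; adjusted p = 0.0038, 0.0036 and 0.013 by limma), where 57% of probes were called, 19.1% of all higher in females. Leaving out male 8 as well ended the call for vtg2 (3.18, adjusted p = 0.105 by limma), with male 9 as a lone male.

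Esr1 differed by -1.57 ± 0.67 in the scaled Cy5 signal without the library labelled male 5 (SE; adjusted p = 0.076 by limma). Without female 9 as well it was -1.96 (adjusted p = 0.031 by limma), and over the single omissions the difference ran from -2.10 to -1.05. These values stand beside a median of -0.999 over all probes in the same fit. With the 75th percentile taken over all probes the esr1 difference was -0.93 and the median -0.36. A lower esr1 signal in females was therefore not established at the brightness of this probe.

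The common reference itself gave higher vitellogenin signals in session 1 than in session 3. In Cy3 the vtg2 signal was 13938 and 10856 on the arrays of females 7 and 9 and 13774.5 on that of male 9, all of session 1. It was 689.7 and 892.6 on the arrays of females 4 and 8 and 590.4 on that of male 5, all of session 3, and 2054 on that of male 8. Scaled to each array's 75th percentile in Cy3, session 1 exceeded session 3 by 3.63 on the log2 scale for vtg2, or 12.4-fold. It exceeded session 3 by 3.99-fold for vtg5 and 3.89-fold for vtg4. Over the 10210 probes above background in Cy5 on all 7 arrays the same difference had a median of 0.21, and it was at least as large as that of vtg2 in 0.529%, of vtg5 in 8.35% and of vtg4 in 8.81%.

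This step in the reference goes with the order of the females. In ratios the session 3 females 4 and 8 exceeded the session 1 females 7 and 9 for vtg2, vtg4 and vtg5, although females 4 and 9 were nearly equal for vtg5. In scaled Cy5 signal, females 7 and 9 exceeded females 4 and 8 for all 3. The ranking of females by vitellogenin level therefore differed with the quantity read, and whether the reference RNA or the scanning differed between sessions was not tested. The library labelled male 5, also of session 3, was above females 7 and 9 in the vtg2 ratio. In scaled Cy5 signal its vtg2 value was -0.72, below 1.26 in female 7 and 1.95 in female 9. The contrast of females with males 8 and 9 was called on both scales.

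**Figure D3:**
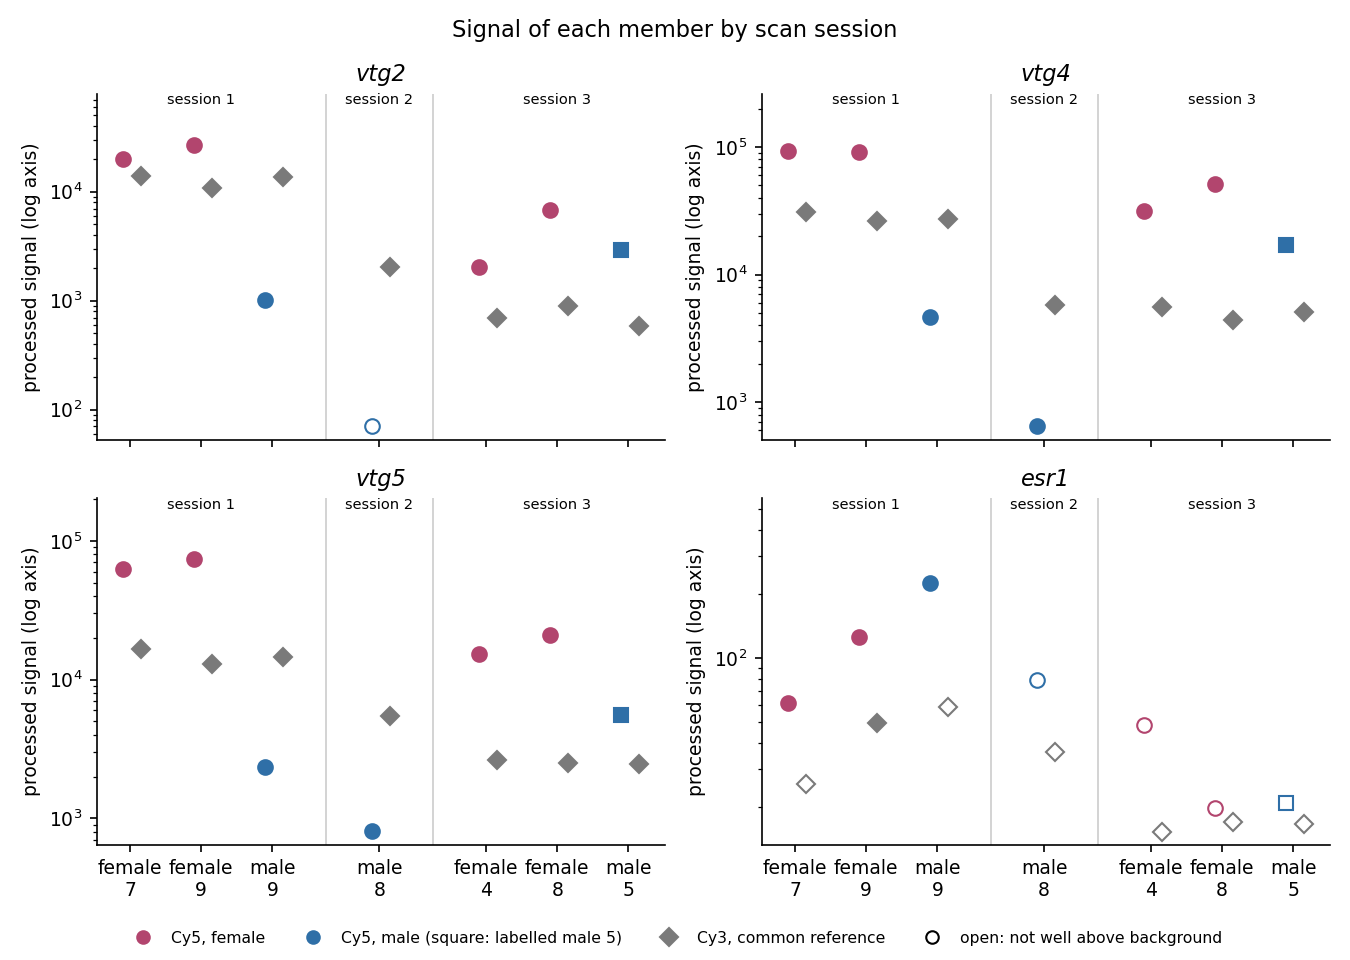
The vertical axes give the processed signal on a log scale for each gene, with fish grouped by scan session, Cy5 (the fish) as circles or a square and Cy3 (the common reference) as diamonds, open where not well above background. The reference signal of vtg2 lies between 10856 and 13938 in session 1 and between 590.4 and 892.6 in session 3.

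Among the females the spread was unequal between the genes. The SD of the log2 ratio was 1.00 for vtg2, larger than that of 79.0% of tested probes, and 0.88 for vtg4, larger than that of 72.3%. For vtg5 it was 0.47, larger than that of 38.5%, against a median SD of 0.59 over all probes. In scaled Cy5 signal the order of vtg4 and vtg5 turned, with an SD among females of 0.56 for vtg4, 0.92 for vtg5 and 1.51 for vtg2. Esr1, with an SD of 0.63 in ratios, lay near the median of 0.59. In ratios female 8 was the highest and female 7 the lowest of the females for all 3 vitellogenins. In scaled Cy5 signal female 9 was the highest and female 4 the lowest of them.

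The ratios of vtg4 and vtg5 stayed close together within each fish. Vtg4 minus vtg5 was -0.01, -0.31, 0.47 and -0.73 in females 4, 7, 8 and 9, against 0.56 in the library labelled male 5, -0.42 in male 8 and 0.09 in male 9. Vtg2 minus vtg5 was -0.97, -1.41, -0.15 and -1.21 in females 4, 7, 8 and 9, against 1.11 in the library labelled male 5, -2.12 in male 8 and -1.13 in male 9. Only in the library labelled male 5 was the ratio of vtg2 thus higher than that of vtg5. With normexp and loess, vtg2 minus vtg5 was 0.54 in that library and also above 0 in male 8 (0.17), with the females between -1.44 and -0.50.

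Since the RNA came from whole animals, the vitellogenins were also set beside other liver genes on the same array. Of 14 liver markers 8 were tested, and all 8 were well above background in every fish. Their median log2 ratio was 1.82, 2.37, 1.43 and 2.71 in females 4, 7, 8 and 9, against 1.28 in the library labelled male 5, 4.48 in male 8 and 3.65 in male 9. Males 8 and 9 thus had the highest liver marker ratios together with the lowest vitellogenin ratios.

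Relative to that median, vtg5 was at 0.70, -0.46, 1.64 and -0.19 in females 4, 7, 8 and 9, against -0.09 in the library labelled male 5, -7.23 in male 8 and -6.29 in male 9. Vtg4 was at 0.70, -0.77, 2.11 and -0.93 in the same females, against 0.47 in the library labelled male 5, -7.65 in male 8 and -6.19 in male 9. Vtg2 was at -0.27, -1.86, 1.49 and -1.40 in the females, against 1.01 in the library labelled male 5, -7.41 in male 9 and, from a spot not well above background, -9.35 in male 8. On this scale the library labelled male 5 lay within the range of the females for all 3 genes, and males 8 and 9 lay more than 5 units below the lowest female.

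The difference of females minus males relative to the liver markers was 4.96 for vtg5, 4.74 for vtg4 and 4.74 for vtg2 over 7 fish (exact permutation p = 0.171, 0.171 and 0.229, two-sided). Without male 8 the difference for vtg2 was 2.69, for vtg4 3.14 and for vtg5 3.61. Without the library labelled male 5 it was 7.18 for vtg5, 7.20 for vtg4 and 7.87 for vtg2, each at p = 0.133, the smallest that exact test allows. With normexp and loess these were 6.11, 6.38 and 5.19, and against male 9 alone vtg2 was at 6.90. The higher liver marker ratios of males 8 and 9 add to these differences by construction. For esr1 the relative difference was 1.05 over 7 fish (exact permutation p = 0.229) and 1.59 without that library (exact permutation p = 0.133). Males 8 (-3.37) and 9 (-1.73) then lay below the 4 females, which ran from -1.37 to -0.15. That separation was lost relative to the median of the tested liver lipoprotein genes. Male 9 (-1.22) then lay above female 8 (-1.31), and without that library the exact permutation p was 0.267. In Cy5 the esr1 spots of females 4 and 8, the library labelled male 5 and male 8 were not well above background.

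**Figure D4:**
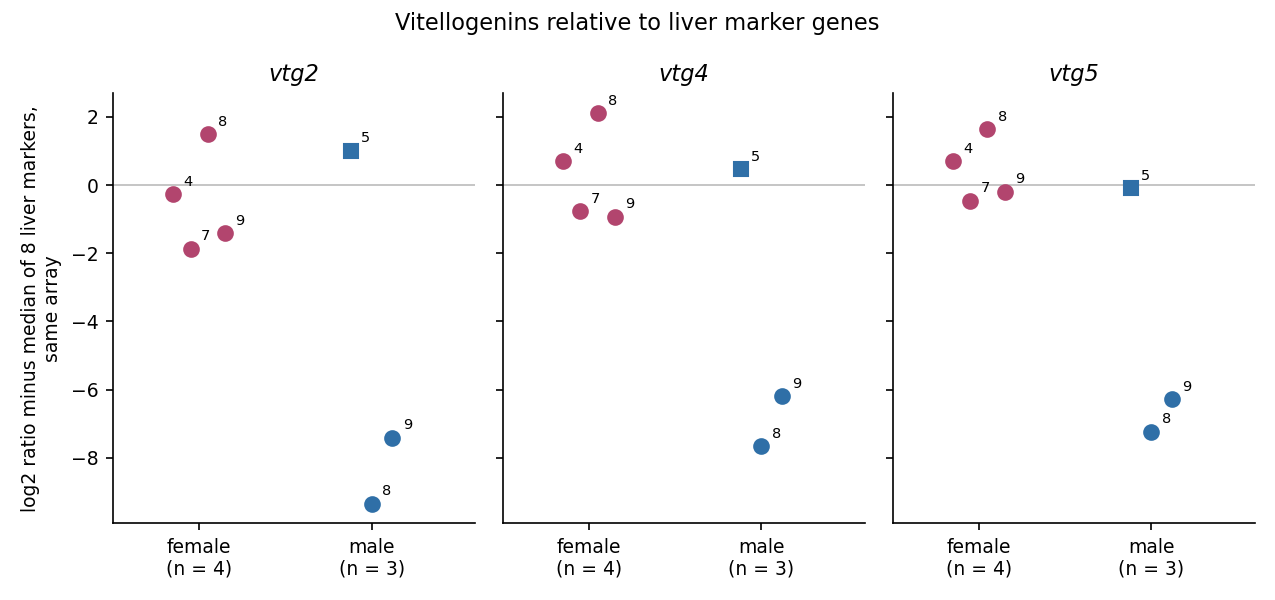
The vertical axis gives the log2 ratio of each vitellogenin minus the median log2 ratio of 8 liver markers in the same fish, with females left of males and numbers naming the fish. The library labelled male 5 (square) lies among the females, and males 8 and 9 lie between -9.35 and -6.19.

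Genes of the wider pathway were read from 7 lists covering receptors, hormone synthesis, its pituitary control, yolk uptake and liver lipoproteins. Of 57 listed genes 37 had a named probe and 27 were tested. Over the 7 fish none passed (0% of all probes). Without the library labelled male 5, 6 of 27 were higher in females and 10 of 27 higher in males 8 and 9, where 22.4% and 19.2% of all probes were called in those directions. With the session block these counts were 5 and 4, where 4037 and 1585 of all 22690 probes were called in those directions. With normexp and loess the counts were 5 and 10, where 2999 and 2758 of all 22705 probes were called. Over the 7 fish the yolk genes named below differed by 2.92 (nots), 2.01 (ctsba), 1.098 (vldlr) and -2.20 (ldlra). The steroid synthesis genes named below that passed without the library labelled male 5 differed by 3.39 (hsd3b2), 3.001 (cyp11a1.1), -3.18 (star), -2.93 (hsd17b3) and -2.28 (cyp19a1b). For the genes of both sets the adjusted p was 0.413 by limma, or 0.550 for vldlr. The other genes named below that passed without the library labelled male 5 by the same fit differed over 7 fish by -2.79 (apoa2) to -0.75 (ar), with an adjusted p of 0.413 to 0.535.

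The genes that take up and cleave yolk were the list with most members higher in females. Of 7 tested, 4 were higher in females and 1 in males 8 and 9, with a median difference of 2.21. Of all probes, 22.4% and 19.2% were called in those directions. The list counts were 3 and 0 with the session block, and 3 and 2 with normexp and loess. Nots, a fish aspartic protease known from female liver, differed by 4.11 ± 0.69 (SE; adjusted p = 0.0048 by limma), and by 2.07 with normexp and loess (adjusted p = 0.041). Its log2 ratio was 1.28, 2.22, 0.34 and 1.97 in females 4, 7, 8 and 9. It was 0.92 in the library labelled male 5, -3.44 in male 8 and -1.88 in male 9. Males 8 and 9 thus lay below all females, as for the vitellogenins and for 29.4% of all probes.

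Ctsba, a cathepsin B that cuts yolk proteins, differed by 2.84 ± 0.50 (SE; adjusted p = 0.0058 by limma). Vldlr, the receptor through which oocytes take up vitellogenin, differed by 2.22 ± 0.72 (adjusted p = 0.043 by limma). It was 2.42 with the session block (adjusted p = 0.054) and 1.34 with normexp and loess (adjusted p = 0.153). Ldlra, a low-density lipoprotein receptor of many tissues, differed by -3.35 ± 0.68 (adjusted p = 0.0090). It was -2.85 with the session block (adjusted p = 0.115) and -1.42 with normexp and loess (adjusted p = 0.0063), and it was well above background in 2 of the 4 females.

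Of the other steroid receptors, 3 were tested and only ar, the androgen receptor, passed. It was higher in males 8 and 9, at -1.37 ± 0.39 (SE), with an adjusted p of 0.029 by limma, but 0.112 with the session block. Another tested probe of ar also passed, in a direction not given here, and a further tested probe did not. The oestrogen receptors esr2a (-0.59, adjusted p = 0.517 by limma) and esr2b (-0.71, adjusted p = 0.473) did not pass, as esr1 did not. Of 5 tested coregulators of nuclear receptors and liver transcription factors, 0 passed by limma, where 41.6% of all probes were called. With normexp and loess 1 passed, ncor1, a corepressor, at -1.29 (adjusted p = 0.026 by limma), where 25.4% of all probes were called. With the session block its adjusted p was 0.395 by limma. Of its 3 other tested probes, 0 passed by limma in the processed-signal ratios.

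Genes of steroid synthesis moved in both directions. Of 6 tested, 2 were higher in females and 3 in males 8 and 9, where 22.4% and 19.2% of all probes were called in those directions. Cyp17a1 did not pass on its brightest probe (1.58, adjusted p = 0.263 by limma). Of its 3 other tested probes 2 did, in a direction not given here. Hsd3b2 (4.84 ± 0.64, adjusted p = 0.0023 by limma) and cyp11a1.1 (4.55 ± 0.43, adjusted p = 0.0012), which act early in steroid synthesis, were higher in females. Star, which brings cholesterol into mitochondria (-4.57 ± 0.41, adjusted p = 0.0012), and hsd17b3, which makes testosterone (-4.44 ± 0.64, adjusted p = 0.0030), were higher in males 8 and 9. The remaining call toward males 8 and 9 was cyp19a1b (-3.25 ± 0.43, adjusted p = 0.0023 by limma). Cyp19a1a and hsd17b1 had probes on the array but were not tested. The other tested probe of hsd3b2 did not pass, its named probe was well above background in 1 of males 8 and 9, and star was well above background in 1 of the 4 females. All 5 calls in this list were also made with the session block and with normexp and loess, where 24.8% and 25.4% of all probes were called. Normexp and loess gave smaller differences of 1.37 for hsd3b2, 1.51 for cyp11a1.1, -1.18 for star and -2.33 for hsd17b3.

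Of the gonadotropin axis 2 genes were tested, and gnrh2, a brain neuropeptide, was higher in males 8 and 9 at -1.37 ± 0.44 (SE; adjusted p = 0.041 by limma). It was at an adjusted p of 0.151 with the session block and of 0.436 with normexp and loess. All 4 tested genes of the liver lipoprotein list were higher in males 8 and 9, opposite to the vitellogenins. In that direction 19.2% of all probes were called. The 4 genes were apoa2 (-4.16 ± 0.68, adjusted p = 0.0043), apoeb (-4.15 ± 0.97, adjusted p = 0.015), apobb.1 (-2.62 ± 0.58, adjusted p = 0.012) and apoa1a (-2.51 ± 0.64, adjusted p = 0.020). In whole-animal RNA the organ that gave these transcripts was not determined. With the session block apoa2 alone passed (adjusted p = 0.035), and with normexp and loess 3 of the 4 did. Of the 8 liver markers 3 were higher in males 8 and 9, and 0 with the session block. Liver share was not measured, so its part in these differences was not tested.

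**Figure D5:**
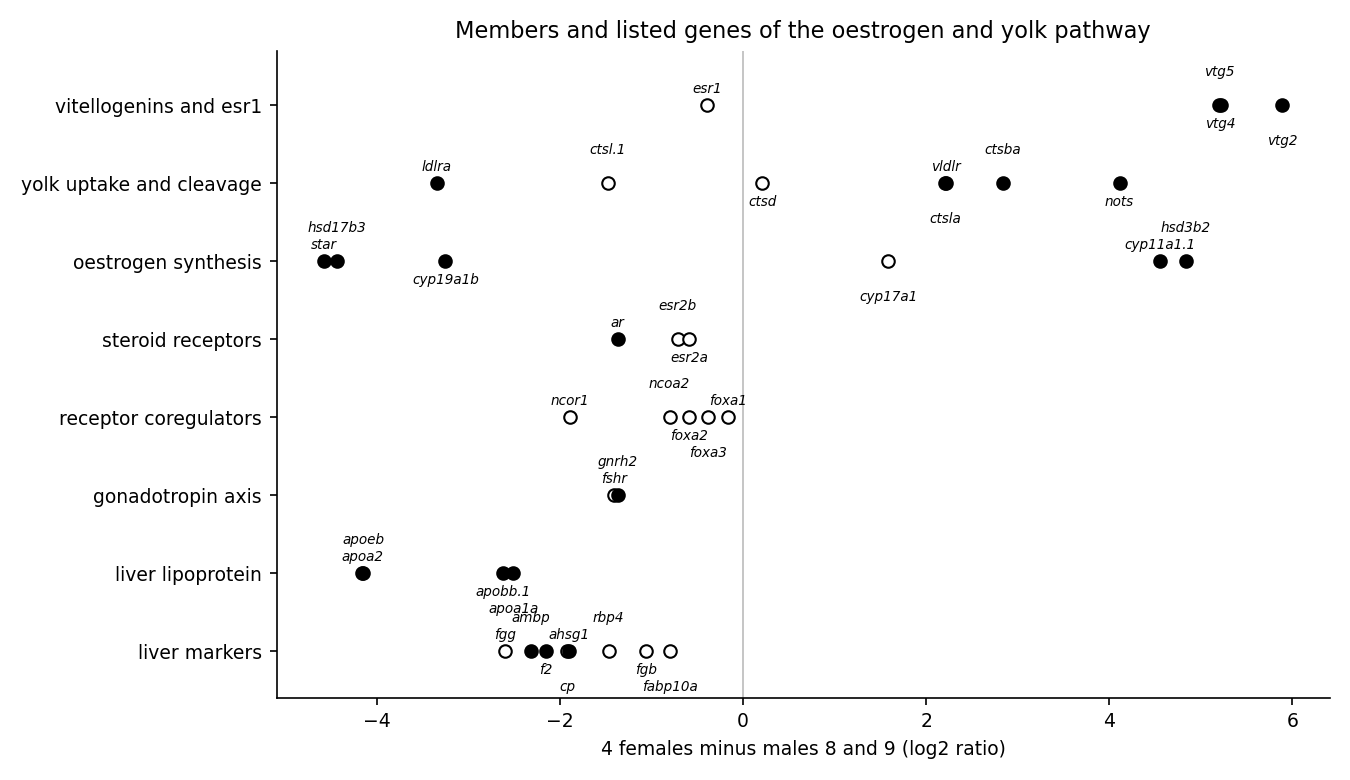
The horizontal axis gives the log2 difference of the 4 females minus males 8 and 9 for the 4 genes, the tested genes of the pathway lists and 8 liver markers, 1 list a row, filled where the adjusted p by limma was under 0.05. The vitellogenins lie between 5.20 and 5.88 and the 4 liver lipoprotein genes between -4.16 and -2.51.

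Among 8831 named genes, the profile over the 7 fish most like that of vtg5 was that of vtg4, with a root mean square difference of 0.438 on the log2 scale after each gene's mean was removed. Csad, an enzyme of taurine synthesis, followed at 0.445, then zgc:113452 (0.539), si:rp71-45k5.2 (0.559) and gemin8 (0.562), the last a member of the complex that assembles spliceosomal particles. Vtg2 was at place 515 (0.960). Csad had log2 ratios of 0.44, 0.50, 0.86 and 0.37 in females 4, 7, 8 and 9, against 0.05 in the library labelled male 5, -3.93 in male 8 and -3.98 in male 9, and was well above background in Cy5 on 5 arrays. As it was chosen for its likeness, this profile is a description.

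For esr1 the most alike genes were ppp1r42 (0.146), fzd2, a Wnt receptor (0.225), tmem59 (0.269), crygn1 (0.271) and sri (0.290). The vitellogenins were near the other end of that order, with vtg5 at place 8681, vtg4 at 8725 and vtg2 at 8813 of 8831. The measure was not scaled to each gene's range, so a gene with a wide range lies far from esr1 whatever its pattern. These places therefore do not show whether the patterns were related. As esr1 was at background on 4 arrays, its profile is partly one of background signal. Fzd2 was above background on 3 arrays as well.

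In the gene order of the current zebrafish assembly (GRCz12tu), the 3 vitellogenin genes lie in a single run with vtg6, vtg7 and vtg8, vtg5 at its start, then vtg4 and vtg2, and with 2 further genes between vtg5 and vtg4. Of the nearest 3 genes on each side only mcoln2, a lysosomal ion channel gene, had a tested probe. It differed by 1.93 over 7 fish (adjusted p = 0.413 by limma) and was higher in females by 3.07 without the library labelled male 5 (adjusted p = 0.0072), against 5.20 for vtg5. Next to esr1, armt1 differed by 0.82 (adjusted p = 0.487 by limma) and zbtb2b by 0.73 (adjusted p = 0.513) over 7 fish. Without the library labelled male 5, armt1 (1.28, adjusted p = 0.042) and zbtb2b (1.17, adjusted p = 0.047) were higher in females, a direction called for 22.4% of all probes, while serac1 (1.93, adjusted p = 0.082) and myct1a (0.84, adjusted p = 0.450) did not pass by limma.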

How the data were processed

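Per the file headers, the authors read design 019161 arrays with Agilent Feature Extraction, version 10.5.1.1, under protocol GE2_105_Jan09_2, and the deposited scanner files give each spot's intensity in both channels, including the processed intensity left by the software's background subtraction and dye normalization. Log10 ratios of Cy5 over Cy3 make up the deposited value table and equal those in the scanner files. The labels give total RNA, but their labelling text is written for heat-denatured genomic material, so how RNA was labelled is not given in the sources used here.

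From the processed intensities, log2 ratios were computed without 1417 control spots and 98 outlier spots, averaging repeat spots. Testing was limited to the 22705 of 43603 probes whose Cy5 spots were above background (the software's stricter mark) on 3 or more of the 7 arrays. Probes were named by unversioned RefSeq accession through a GRCz12tu gene table (38.0% named). The array was designed on danRer6, so no coordinates are given. For a listed gene the brightest tested probe was used. Cy5 signals were scaled to the 75th percentile over 10210 probes well above background on all 7 arrays.

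Two-sided tests used lmFit and eBayes of limma 3.58.1 (R 4.3.3) with Benjamini-Hochberg adjustment over all tested probes and a threshold of 0.05, or an exact permutation over fish. The limma script was tested on simulated data. Alternatives were normexp (offset 50) with loess, median centring, the deposited table, other filters, saturated spots as missing, scan session or fish number as a block, and each fish left out. No gene had another probe to try. The genes, lists and tests were chosen with earlier results of these data known. Of each list, up to 4 members with the largest difference among those that passed were to be named. Esr2a, esr2b, ncor1, cyp19a1b and the genes beside vtg5 and esr1 were named after their values were seen.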

Additional observations from a re-analysis of the deposited data

How the results depend on the processing

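Precision was limited by the number of arrays, by a lone male in sessions 1 and 3, and for esr1 by signal near background. For 4 females minus 3 males, 0 of the 4 genes passed in the log2 ratio and 0 in Cy5 signal. That number was 3 within session 1, and 0 to 3 as each fish was left out, for ratios and for Cy5 alike, where the library labelled male 5 was the omission that gave 3. The numbers 8 and 9 occur in both sexes only as fish numbers, and with that number as a replicate block, which compares females 8 and 9 with males 8 and 9, 3 passed in ratios and 3 in Cy5 signal. The block left the calls without the library labelled male 5 as they were. Without that library the 3 vitellogenins passed in ratios under each setting that tested them, also as each further fish was left out, while the filter for all 7 arrays dropped vtg2 and esr1. The difference of vtg2 turned to -0.062 within session 3. That of esr1 over 7 fish was 0.057 with the deposited table, 0.19 with median centring, 0.17 with normexp and loess and 0.61 within session 3, and -0.40 to 0.40 as each fish was left out. Without the library labelled male 5 it was 0.13 with normexp and loess, and -0.80 to 0.0097 as each further fish was left out. The causes were not tested. No other probe of a gene could be tried, since each had 1. Over all probes, 0 passed for 7 fish, but 7584 with the replicate block, 12672 within session 1 and 9447 without the library labelled male 5. In that last fit 53.8% of calls were higher in females. The number was 5757 with normexp and loess, 5300 (67.7% higher in females) with the filter for all 7 arrays, 5622 (71.8%) with session as a block and 5571 (70.6%) without male 8. In Cy5 signal 0 passed for 7 fish, 9256 with the replicate block and 12945 without the library labelled male 5 (33.5% higher in females). That last number was 12536 (48.1%) with the percentile over all probes, 6989 (47.4%) with session as a block, 5647 (45.5%) without male 8 and 7853 without male 9.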

Other observations

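The scanner files' headers gave the same slide position to 3 pairs of arrays that were scanned in different sessions, namely females 4 and 7, female 8 and male 9, and female 9 and male 5. Correlations of log2 ratios were taken across the 10210 probes above background in Cy5 on all 7 arrays. They were 0.71, 0.39 and 0.56 for those pairs. The library labelled male 5 correlated at 0.87 with female 8 and at 0.80 with female 4, both also of session 3. With fish of other sessions it correlated at 0.51 (female 7), 0.56 (female 9), 0.50 (male 8) and 0.42 (male 9). Both of its session 3 partners were labelled female, so session and sex cannot be told apart in the higher values. Probes are not independent replicates, and all pairs share the reference.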
